A study of Mus musculus with 9 samples.

Results

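Interferon-stimulated genes were followed in the lungs of mice with ventilator-induced lung injury (VILI). The 39 genes were taken from a list of known interferon-induced genes by symbol, and 38 of them were found among the 27203 genes of the table. Mx2 was not analysed here. Of the 38, 28 were counted as targets of type I interferon and 10 as targets of interferon-γ (Irf1, Gbp2, Gbp3, Gbp5, Irgm1, Igtp, Iigp1, Ifi47, Cxcl9 and Cxcl10), although many of these genes respond to both. RNA sequencing was done on whole lung of male C57BL/6 mice aged 6 to 8 weeks, with 1 mouse per library and 3 libraries per group. Control mice were intubated and breathed without the ventilator. Mice of both VILI groups were anesthetized with ketamine and xylazine, given the muscle relaxant pancuronium and ventilated with room air over 4 hours, the tidal volume being 20 ml/kg, and were killed 0 or 6 hours after ventilation ended. No ventilated group at a low tidal volume was analysed here, so ventilation, its drugs and stretch cannot be told apart. Levels are FPKM, which are fragment counts scaled for transcript length and library size, added up over the transcripts of a gene, and are given for replicates 1, 2 and 3 in that order. The FPKM summed over all genes ran from 366360 to 388459 per library. Libraries of a group were alike over genes, with Spearman correlations from 0.953 to 0.978, and Sftpc, Ager, Scgb1a1 and Pecam1, which mark lung epithelium and endothelium, were at 146 FPKM or more in all 9 libraries.

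Interferons are cytokines that put cells into an antiviral state. Type I interferons bind the receptor of Ifnar1 and Ifnar2, whose kinases JAK1 and TYK2 activate a complex that holds STAT2 and IRF9 and binds the interferon-stimulated response element (ISRE) of target genes. Interferon-γ binds the receptor of Ifngr1 and Ifngr2, and JAK1 and JAK2 then activate a factor that binds the interferon-γ activated site (GAS). IRF1, itself induced by interferon-γ, also binds ISRE-like sites. In the lung these genes are best known for the response to respiratory viruses, and a basal level is kept without infection.

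Promoters of 6 members are shown because they hold the motifs named above and belong to genes with different patterns over the libraries described further on. Each run is the 250 bases upstream of the start of transcription, 5′ to 3′ on the strand of the gene, from RefSeq (GRCm38.p6). Capitals mark the ISRE core GAAANNGAA, printed as its reverse complement where it lies on the opposite strand, and in Irf1, which had no ISRE core, they mark the GAS motif TTCNNNGAA.
Isg15, chr4:156200819-156201068, minus strand: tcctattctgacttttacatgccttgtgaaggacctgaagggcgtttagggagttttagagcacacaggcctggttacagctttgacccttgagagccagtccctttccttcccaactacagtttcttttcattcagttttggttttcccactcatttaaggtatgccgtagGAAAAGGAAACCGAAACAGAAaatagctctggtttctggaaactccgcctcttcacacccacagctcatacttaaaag
Ifit3, chr19:34583279-34583528, plus strand: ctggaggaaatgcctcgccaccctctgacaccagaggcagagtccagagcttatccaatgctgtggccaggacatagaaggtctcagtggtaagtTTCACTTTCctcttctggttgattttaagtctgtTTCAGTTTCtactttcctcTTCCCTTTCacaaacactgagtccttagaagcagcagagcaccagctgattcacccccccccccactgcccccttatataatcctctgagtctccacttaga
Oas3, chr5:120777660-120777909, minus strand: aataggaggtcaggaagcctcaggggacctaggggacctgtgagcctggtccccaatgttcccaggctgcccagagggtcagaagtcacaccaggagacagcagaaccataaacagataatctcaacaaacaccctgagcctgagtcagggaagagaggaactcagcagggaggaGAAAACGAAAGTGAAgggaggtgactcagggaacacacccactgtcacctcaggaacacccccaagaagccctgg
Gbp2, chr3:142620413-142620662, plus strand: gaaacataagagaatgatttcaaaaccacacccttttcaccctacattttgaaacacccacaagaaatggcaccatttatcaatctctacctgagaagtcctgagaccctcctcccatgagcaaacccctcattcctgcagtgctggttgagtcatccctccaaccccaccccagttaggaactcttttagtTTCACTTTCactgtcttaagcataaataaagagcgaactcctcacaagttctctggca
Cxcl10, chr5:92348890-92349139, minus strand: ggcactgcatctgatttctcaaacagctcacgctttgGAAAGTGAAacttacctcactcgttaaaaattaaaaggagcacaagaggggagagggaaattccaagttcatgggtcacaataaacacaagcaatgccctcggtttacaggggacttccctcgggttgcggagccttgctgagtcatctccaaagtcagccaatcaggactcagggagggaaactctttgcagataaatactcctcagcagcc
Irf1, chr11:53769764-53770013, plus strand: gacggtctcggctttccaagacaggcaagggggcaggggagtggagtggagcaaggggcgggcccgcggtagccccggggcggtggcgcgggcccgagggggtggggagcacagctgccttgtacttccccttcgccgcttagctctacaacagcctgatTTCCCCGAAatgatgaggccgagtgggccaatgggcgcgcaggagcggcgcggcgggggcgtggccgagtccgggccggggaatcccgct
Matches that share bases run together, as in Isg15 with 3 matches and Oas3 with 2. The first base of the match lay at position -58 from the start in Gbp2, at -213 in Cxcl10 and at -90 for the GAS motif of Irf1. Promoters were available for 30 of the 39 members. Within 250 bases before and 50 after the start, 20 of the 30 (66.7%) held the ISRE core, against 9.76% of 27025 genes with a promoter. The GAS motif was found in 8 of the 30 (26.7%), against 9.55% of all. The ISRE core was present in 7 of 9 interferon-γ targets and in 13 of 21 type I targets. Members with and without an ISRE core in the window are compared with their levels at the end of the results. A match is a run of letters and was not measured as a binding site.

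One library stood apart for these genes. In VILI 6 hours replicate 3, 37 of 38 members were the highest of their group, while 25.4% of all 19378 genes tested were highest there. The exception was Ddx58, which was highest in VILI 6 hours replicate 1. On the scale log2(FPKM + 0.1) minus the control mean, the median member was at 0.82 in VILI 6 hours replicate 3, but at -0.44 and -0.29 in replicates 1 and 2. The VILI 6 hours group therefore held libraries on both sides of control. Fold changes called at 6 hours, and the number of members called with their medians, are also given without replicate 3.

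**Figure D1:**
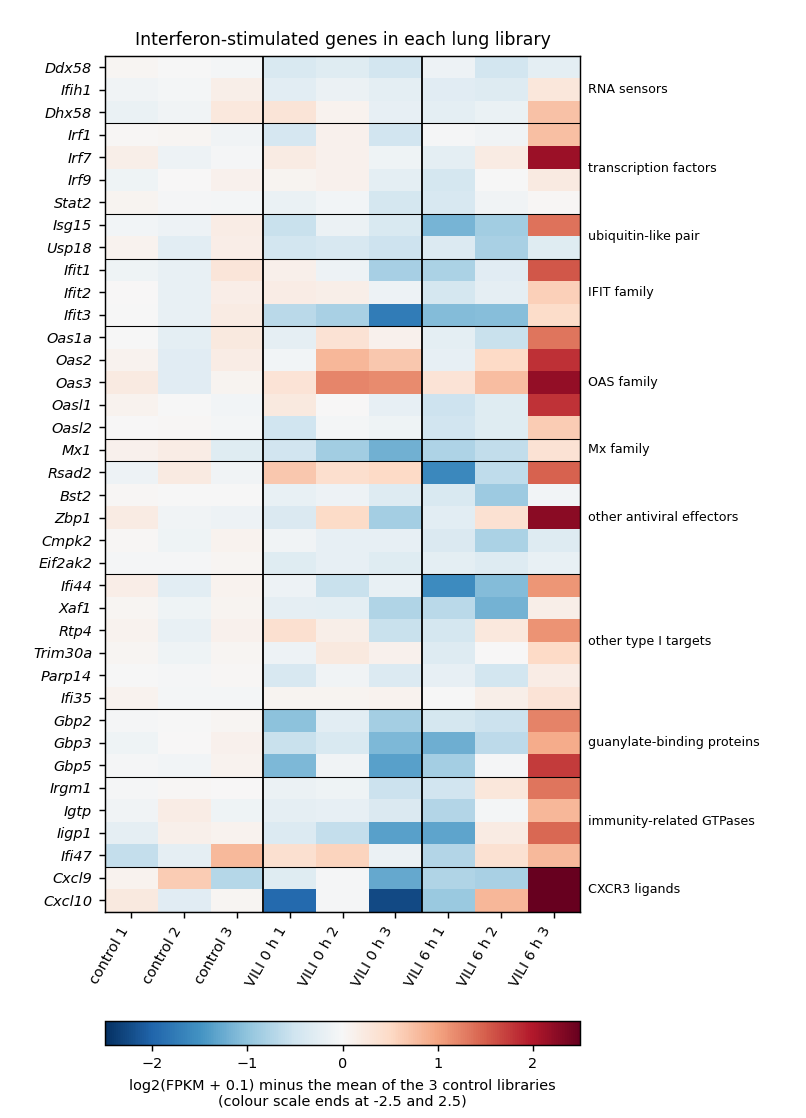
Colour gives log2(FPKM + 0.1) of each of the 38 genes in each of the 9 libraries (columns) minus the mean of the 3 control libraries on a capped colour scale, with rows grouped by role. Most rows are blue in VILI 0 hours and in VILI 6 hours replicates 1 and 2, and red in VILI 6 hours replicate 3.

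Members were counted library by library against the controls, first soon after ventilation. In VILI 0 hours replicate 1, 22 of 38 members were below all 3 control libraries and 7 were above them, where all genes gave 44% and 28.9%. In replicate 2, 19 were below and 8 above, against 36.5% and 27.6% of all genes. In replicate 3, 28 were below and 4 above, against 42% and 26.9%. These counts were thus closest to the share of all genes in replicate 2 and furthest from it in replicate 3.

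At VILI 6 hours the 3 libraries differed from each other. In replicate 1, 34 of 38 members were below all 3 control libraries and 1 was above, against 30.3% and 35.1% of all genes. The 1 above was Oas3. In replicate 2, 24 were below and 9 above, against 44.9% and 29.5%. In replicate 3, 5 were below and 32 above, against 51.5% and 28.2%. The 5 below in replicate 3 were Ddx58, Usp18, Cmpk2, Bst2 and Eif2ak2. The interferon-γ targets had the wider swing, with medians of -0.74, -0.04 and 1.29 in the 3 libraries, where the type I targets had -0.36, -0.32 and 0.55.

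**Figure D2:**
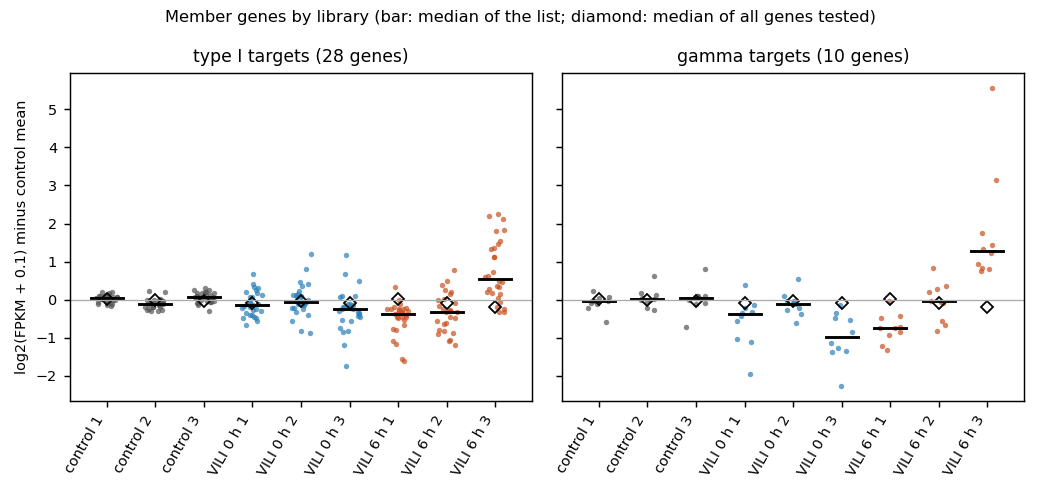
Each dot is 1 gene in 1 library, on the y axis as log2(FPKM + 0.1) minus the control mean, for 28 type I targets (left) and 10 interferon-γ targets (right). The bar is the median of the genes shown and the diamond that of all 19378 genes tested. The bars lie at or below the diamonds in the VILI 0 hours libraries and in VILI 6 hours replicate 1, and far above the diamond in VILI 6 hours replicate 3.

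The first comparison asked how these genes stood immediately after ventilation. Against control, Ifit3, Mx1, Usp18, Ddx58 and Eif2ak2 fell at an unadjusted P under 0.05, and no member rose. That is 5 of 38 members lower, where 9.35% of all genes tested were lower and 6.81% higher. After Benjamini-Hochberg adjustment of the limma P values over 19378 genes 0 members passed, against 0.284% of all genes. In whole lung, fewer cells of a type and less RNA per cell cannot be told apart. Without any test, 17 of 38 members were lower in all 3 VILI 0 hours libraries than in every control library, against 21.6% of all genes, and 2 members (Rsad2 and Oas3) were higher in all 3, against 12%. The median log2 fold change was -0.22 over the type I targets and -0.61 over the interferon-γ targets, beside -0.07 over all genes tested. Without VILI 0 hours replicate 3 these medians were -0.051 and -0.34. With VILI 6 hours replicate 3 left out of the estimate of spread, 1 member was higher and 10 were lower, against 7.78% and 12.3% of all genes. Each library centred on its own median shifted fold changes against control by 0.11 at VILI 0 hours and 0.13 at VILI 6 hours. In a fit of the 6 libraries compared alone, 2 members were higher and 16 lower, against 9.78% and 16.5% of all genes, and 1 passed the adjustment, against 8.24%. With centred libraries 0 members were higher and 1 (Ddx58) was lower at VILI 0 hours, against 10% and 6.36% of all genes.

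The second comparison asked about 6 hours of recovery. Against control, Oas3 rose, and Cmpk2, Usp18, Eif2ak2, Ddx58 and Bst2 fell, at an unadjusted P under 0.05. These 1 and 5 of 38 members stand beside 8.17% of all genes higher and 12.2% lower, and 0 members passed the adjustment, against 0.702%. The same 6 genes were the ones whose groups did not overlap, 1 higher against 9.64% of all genes and 5 lower against 15%. The median log2 fold change was -0.10 over the type I targets and 0.18 over the interferon-γ targets, beside -0.09 over all genes. Without VILI 6 hours replicate 3 these medians were -0.33 and -0.41, with 0 members higher and 16 lower, against 6.63% and 7.48% of all genes, and 0 after adjustment, against 0.0877%. Without VILI 6 hours replicate 1 the medians were 0.17 and 0.70, with 7 members higher and 5 lower, against 12.8% and 26%, and 3 after adjustment (Cmpk2, Oas3 and Ddx58), against 23.3%. With median-centred libraries 1 member was higher (Oas3) and 1 lower (Cmpk2), against 11.7% and 8.46%.

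Between the times, Cxcl10 was the member that rose from VILI 0 hours to VILI 6 hours at an unadjusted P under 0.05, and no member fell. All genes gave 5.06% higher and 4.94% lower, and 0% passed the adjustment, as did 0 members. No member was higher in all 3 libraries of VILI 6 hours than in every VILI 0 hours library, against 6.25% of all genes, and 1 member, Cmpk2, was lower in all 3, against 6.28%. Without VILI 6 hours replicate 3, 0 members were higher and 7 lower, against 5.35% and 4.33%, and without VILI 6 hours replicate 1, 9 were higher and 1 lower, against 8.55% and 13.9%. The 9 higher were Iigp1, Irgm1, Cxcl10, Gbp5, Zbp1, Igtp, Irf7, Gbp2 and Irf1, and 7 of them were interferon-γ targets. In that fit 0 members passed the adjustment, against 1.84% of all genes.

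**Figure D3:**
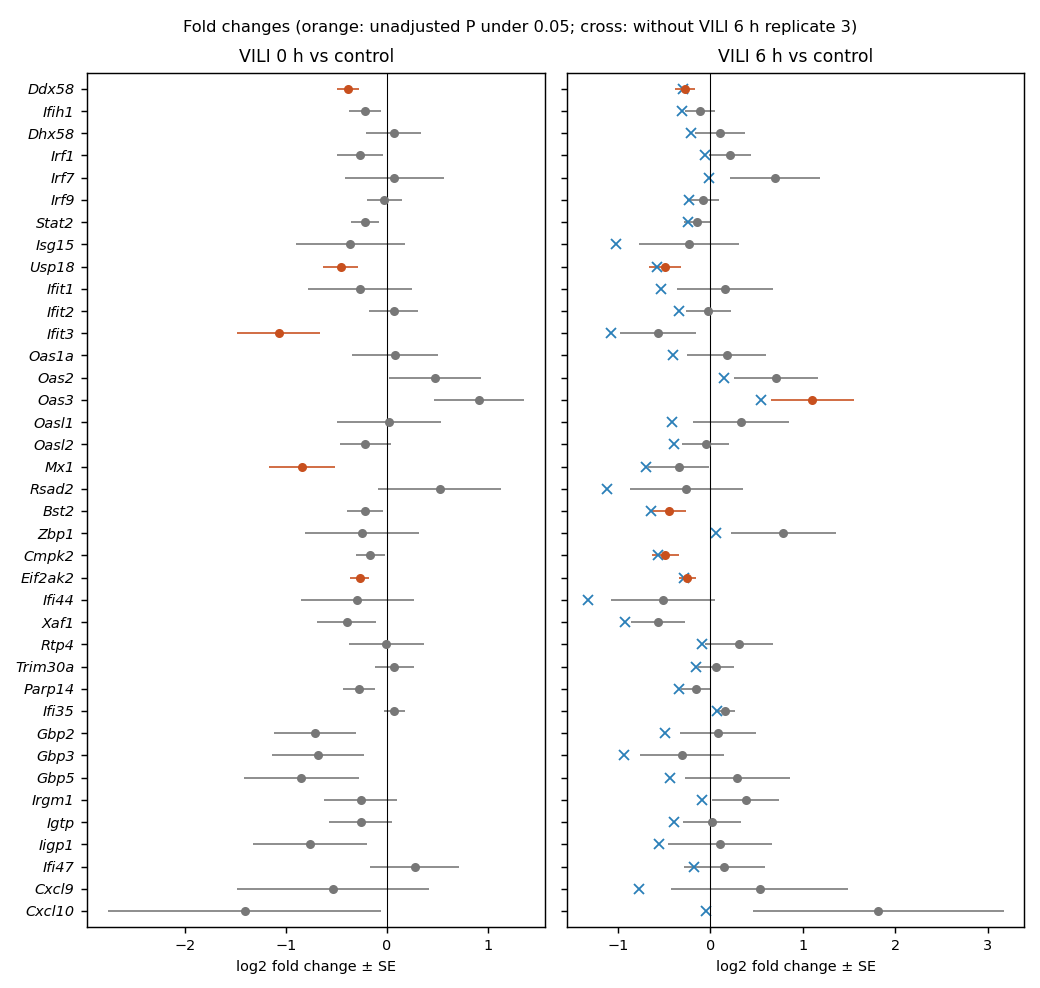
Points are log2 fold changes with standard errors of 38 genes in VILI 0 hours vs control (left) and VILI 6 hours vs control (right), orange at an unadjusted P under 0.05 by limma, with crosses for VILI 6 hours vs control without replicate 3. All 38 crosses lie left of their points, which follows for 37 of 38 from replicate 3 being the highest of its group. Of the crosses, 16 are lower at an unadjusted P under 0.05, against 7.48% of all genes. After adjustment 0 pass, against 0.0877%.

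Among the RNA sensors, which recognise viral RNA in the cytoplasm, Ddx58 (RIG-I) was lower at both times. It was at 21.6, 20.7 and 20.1 FPKM in control, 15.8, 16.7 and 15.1 at VILI 0 hours and 19.1, 15.0 and 17.5 at VILI 6 hours. All 6 ventilated libraries lay below all 3 control libraries. Its log2 fold change was -0.39 (SE 0.11, unadjusted P = 0.0058, adjusted p = 0.137 by limma) at VILI 0 hours and -0.28 (SE 0.11, unadjusted P = 0.0308, adjusted p = 0.204) at VILI 6 hours. The second of these missed the threshold without any 1 of the control libraries or without VILI 6 hours replicate 2 (-0.18), and was -0.29 and past it without replicate 3. Ifih1 (MDA5) was at 13.1 to 15.4 FPKM in control and at 11.6 to 12.6 at VILI 0 hours, and its VILI 6 hours libraries were at 11.5, 11.1 and 17.1. Dhx58 (LGP2), a regulator of the other two, had overlapping groups at both times, with 3.27 to 4.45 FPKM in control and 6.18 in VILI 6 hours replicate 3.

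The transcription factors divided by how far VILI 6 hours replicate 3 departed. Irf7, the master regulator of interferon-α genes, was at 9.50, 7.94 and 8.50 FPKM in control and 9.94, 9.35 and 8.02 at VILI 0 hours. It was at 7.30, 9.93 and 38.1 at VILI 6 hours, so that 1 library carried the group mean of 18.4 ± 17.1 (SD, n = 3). Irf1, a target of interferon-γ whose printed promoter holds the GAS motif, was at 47.6, 48.2 and 43.7 FPKM in control, 34.9, 49.9 and 33.2 at VILI 0 hours, and 45.3, 43.6 and 78.2 at VILI 6 hours. Its groups overlapped in each comparison. Stat2 and Irf9, partners in the factor that binds the ISRE, did not pass the test. Stat2 was at 13.9 to 14.9 FPKM in control, 10.6 to 13.7 at VILI 0 hours, where each library lay below each control, and 10.8 to 14.7 at VILI 6 hours. Irf9 was at 18.7 to 21.9 FPKM in control and 14.8 to 23.6 at VILI 6 hours.

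Isg15, a ubiquitin-like protein that is joined to other proteins, and Usp18, the protease that removes it and also damps the type I receptor, both lay below control at VILI 0 hours. Isg15 was at 7.12, 6.80 and 8.48 FPKM in control, 5.01, 6.72 and 5.68 at VILI 0 hours, and 3.25, 4.01 and 19.2 at VILI 6 hours. VILI 6 hours replicates 1 and 2 were the lowest of its 9 libraries and replicate 3 the highest. Usp18 was at 10.1, 7.81 and 10.6 FPKM in control, 6.81, 7.09 and 6.53 at VILI 0 hours, and 7.41, 5.29 and 7.56 at VILI 6 hours. It was lower in all 6 ventilated libraries, and VILI 6 hours replicate 3 did not stand out. Its log2 fold change was -0.46 (SE 0.17, unadjusted P = 0.0235, adjusted p = 0.232 by limma) at VILI 0 hours and -0.49 (SE 0.17, unadjusted P = 0.0176, adjusted p = 0.169) at VILI 6 hours. Both missed the threshold without control replicate 1 or 3, the first also without VILI 0 hours replicate 3 and the second without VILI 6 hours replicate 2. Without VILI 6 hours replicate 3 the second was -0.58 and past the threshold.

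The IFIT proteins bind viral RNA and block its translation, and their genes lie in a cluster on chromosome 19. Ifit3 had the highest control level of all members, at 49.8, 43.8 and 57.5 FPKM. It was at 31.4, 28.5 and 14.9 at VILI 0 hours, below every control library, and at 23.4, 24.0 and 68.6 at VILI 6 hours. The log2 fold change at VILI 0 hours was -1.07 (SE 0.41, unadjusted P = 0.0273, adjusted p = 0.246 by limma), and it missed the threshold without control replicate 1 (-1.08), control replicate 3 (-0.97) or VILI 0 hours replicate 3 (-0.74). Ifit1 was at 9.25, 8.71 and 12.3 FPKM in control, 10.96, 9.18 and 5.59 at VILI 0 hours, and 5.71, 8.21 and 29.3 at VILI 6 hours. Ifit2 varied least of these genes, with 10.6 to 13.6 FPKM in control, 11.05 to 13.8 at VILI 0 hours and 8.86 to 18.3 at VILI 6 hours. Fragments of Ifit3 may also come from its near-identical copy Ifit3b, so its level is uncertain to that extent.

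The oligoadenylate synthetase genes, whose products activate the RNA-cleaving enzyme RNase L, included Oas3, the 1 member above control in every ventilated library. It was at 1.48, 1.02 and 1.33 FPKM in control, 1.63, 3.05 and 2.99 at VILI 0 hours, and 1.62, 2.22 and 6.17 at VILI 6 hours. Each ventilated library lay above each control library, replicate 1 of either time by the smallest margin. Its log2 fold change was 1.10 at VILI 6 hours (SE 0.45, unadjusted P = 0.0346, adjusted p = 0.213 by limma), and 0.55 without VILI 6 hours replicate 3, 0.96 without control replicate 2 and 1.14 without control replicate 3, where it missed the threshold. Oas2, its neighbour on chromosome 5, was at 2.64, 2.0 and 2.83 FPKM in control, 2.36, 4.42 and 3.99 at VILI 0 hours, and 2.13, 3.54 and 9.03 at VILI 6 hours. Oas1a, one of a family of close copies, was at 3.02 to 4.26 FPKM in control and 9.22 in VILI 6 hours replicate 3. Oasl1 was at 1.27 to 1.43 FPKM in control and Oasl2 at 15.2 to 16.0, and in VILI 6 hours replicates 1 and 2 both lay below all 3 control libraries, with 4.95 and 24.3 in replicate 3.

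Mx1 encodes a GTPase that blocks influenza virus, and C57BL/6 mice carry a nonfunctional allele. It was at 2.05, 2.19 and 1.53 FPKM in control, 1.34, 1.0 and 0.78 at VILI 0 hours, and 1.07, 1.21 and 2.48 at VILI 6 hours. The VILI 0 hours libraries were below all controls, with a log2 fold change of -0.84 (SE 0.33, unadjusted P = 0.0299, adjusted p = 0.255 by limma). It missed the threshold without control replicate 1 or 2 or without VILI 0 hours replicate 2 or 3, with fold changes of -0.83 to -0.67.

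**Figure D4:**
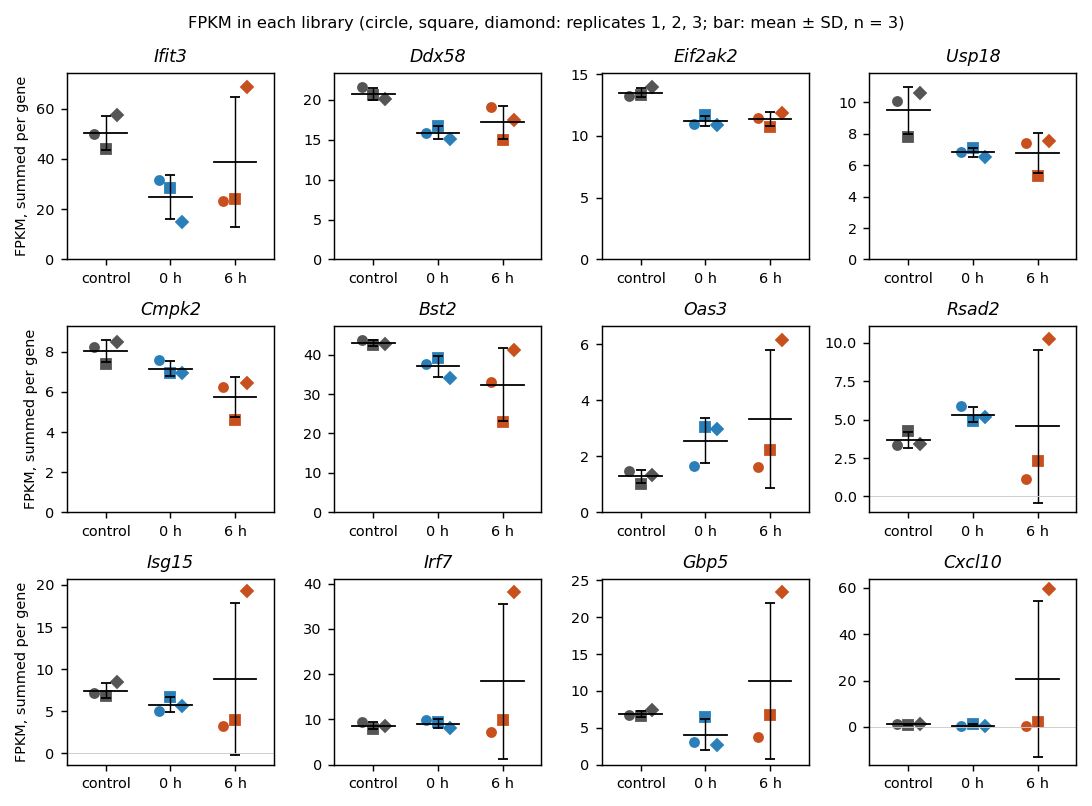
FPKM of 12 genes in the 3 libraries of each group (circle, square and diamond for replicates 1, 2 and 3), with the mean and SD as bars. Ddx58, Eif2ak2, Usp18 and Cmpk2 have tight groups below control at 6 hours, whereas the diamond of VILI 6 hours lies far above the other libraries in Irf7, Gbp5 and Cxcl10.

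Other antiviral effectors did not move together. Eif2ak2 (PKR), a kinase that stops translation when it meets viral RNA, was at 13.3, 13.3 and 14.0 FPKM in control, 11, 11.7 and 10.9 at VILI 0 hours, and 11.4, 10.8 and 11.9 at VILI 6 hours. Control and ventilated libraries did not overlap, and its SD on the log2 scale at VILI 6 hours (0.07) was the smallest of the 38 members. Its log2 fold change was -0.27 (SE 0.09, unadjusted P = 0.0180, adjusted p = 0.209 by limma) at VILI 0 hours and -0.25 (SE 0.09, unadjusted P = 0.0251, adjusted p = 0.189) at VILI 6 hours. The first missed the threshold without control replicate 3 or VILI 0 hours replicate 3, and the second without any 1 control library or VILI 6 hours replicate 2 (-0.28 to -0.21 over the libraries left out, of which -0.28 without VILI 6 hours replicate 3). With median-centred libraries neither passed.

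Bst2 (tetherin), which holds budding virus at the cell surface, was at 43.9, 42.5 and 42.7 FPKM in control, 37.7, 39.3 and 34.2 at VILI 0 hours, and 33.2, 22.9 and 41.3 at VILI 6 hours. The fall at VILI 6 hours had a log2 fold change of -0.45 (SE 0.18, unadjusted P = 0.0352, adjusted p = 0.215 by limma). It was -0.22 without VILI 6 hours replicate 2 and then missed the threshold, as it did without any 1 control library, and -0.64 and past the threshold without replicate 3.

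Rsad2 (viperin) and Cmpk2, which make antiviral nucleotides, are neighbours on chromosome 12 read away from each other, with Rsad2 at 26442746 to 26456452 on the minus strand and Cmpk2 at 26469204 to 26479837 on the plus strand of GRCm38. Rsad2 was at 3.32, 4.26 and 3.43 FPKM in control and 5.85, 4.89 and 5.18 at VILI 0 hours, so that each VILI 0 hours library was higher than each control. It was at 1.13, 2.31 and 10.3 at VILI 6 hours, the 2 lowest and the highest of its 9 values. Cmpk2 was at 8.24, 7.40 and 8.49 FPKM in control, 7.58, 6.96 and 6.95 at VILI 0 hours, and 6.26, 4.61 and 6.43 at VILI 6 hours. Its VILI 6 hours libraries were below all 6 others, replicate 3 included, and the log2 fold change against control was -0.49 (SE 0.15, unadjusted P = 0.0086, adjusted p = 0.134 by limma), from -0.57 (without VILI 6 hours replicate 3) to -0.34 when each library was left out and past the threshold each time. Zbp1, a sensor of Z-form nucleic acid that can start necroptosis, was at 6.40, 5.21 and 5.04 FPKM in control, 4.29, 7.69 and 3.00 at VILI 0 hours, and 4.58, 7.22 and 26.7 at VILI 6 hours.

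Of the remaining type I targets none passed the test with all libraries. Xaf1, a promoter of apoptosis, was at 15.2, 13.6 and 15.4 FPKM in control, 12.6, 12.5 and 8.73 at VILI 0 hours, and 9.19, 6.46 and 16.3 at VILI 6 hours. Ifi44 was at 4.06 to 5.55 FPKM in control, 3.30 to 4.47 at VILI 0 hours, and 1.59, 2.25 and 10.7 at VILI 6 hours. Both genes were highest in VILI 6 hours replicate 3. Without that library, which leaves replicates 1 and 2 at that time, both were lower than control. The log2 fold changes were -0.92 for Xaf1 (unadjusted P = 0.0015, adjusted p = 0.122 by limma) and -1.33 for Ifi44 (unadjusted P = 0.00025, adjusted p = 0.062). In that fit 7.48% of all genes were lower at an unadjusted P under 0.05. Rtp4 was at 5.03 to 6.13 FPKM in control and 4.16 to 12.5 at VILI 6 hours. Trim30a was at 14.4 to 16.1 in control and 12.4 to 22 at VILI 6 hours, and Parp14, an ADP-ribosyltransferase, at 23.5 to 24.7 and 17.5 to 27.5. Ifi35 was the steadiest gene at VILI 0 hours, with 21.6 to 23.7 FPKM in control and 23.3 to 23.6 in the 3 VILI 0 hours libraries.

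The guanylate-binding proteins attack the membranes around intracellular microbes, and Gbp2, Gbp3 and Gbp5 lie in 1 cluster on chromosome 3. All 3 genes were below every control library in every VILI 0 hours library, as were 21.6% of all genes. Gbp2 was at 26.9, 27.2 and 28.3 FPKM in control, 13.5, 22.8 and 15.2 at VILI 0 hours, and 20.3, 18.8 and 64.9 at VILI 6 hours. Gbp3 was at 17.3 to 20.3 FPKM in control, 8.51 to 14.4 at VILI 0 hours, and 8.02, 11.9 and 36.0 at VILI 6 hours. Gbp5, which also promotes inflammasome assembly, was at 6.76, 6.60 and 7.37 FPKM in control, 3.12, 6.51 and 2.65 at VILI 0 hours, and 3.8, 6.80 and 23.4 at VILI 6 hours. None of the 3 passed the test at VILI 0 hours with all libraries. Without VILI 6 hours replicate 3, the smaller shared spread gave unadjusted P values of 0.0030 for Gbp2, 0.0105 for Gbp3 and 0.0312 for Gbp5, with adjusted p of 0.079, 0.125 and 0.199 by limma and the same fold changes of -0.71, -0.69 and -0.85. The family has close copies, so fragments may be shared among them.

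The immunity-related GTPases, which act on the vacuoles of intracellular parasites, were lowest in replicate 1 and highest in replicate 3 among the VILI 6 hours libraries. Irgm1 was at 19.3, 20.2 and 19.8 FPKM in control, 17.9, 18.2 and 13.6 at VILI 0 hours, and 14.1, 24.2 and 50.1 at VILI 6 hours. Iigp1 was at 24.7, 31.5 and 30.7 FPKM in control, 22.7, 19.0 and 11.1 at VILI 0 hours, and 11.5, 33.3 and 77.6 at VILI 6 hours. Igtp was at 10.1 to 12.5 FPKM in control, 8.54 to 9.45 at VILI 0 hours, and 6.58, 10.5 and 19.5 at VILI 6 hours. These 3 genes, of the 4 here, were below every control library in every VILI 0 hours library, against 21.6% of all genes, and VILI 6 hours replicate 1 was below control while replicate 3 was above it. Ifi47, the fourth, already varied among controls, at 6.33, 8.24 and 16.9 FPKM, and its exons overlap those of Olfr56 on the same strand, as those of Igtp overlap Irgm2.

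Cxcl9 and Cxcl10 encode chemokines that draw T and NK cells through the receptor CXCR3, and they are neighbours on chromosome 5. Cxcl10 was at 1.39, 0.94 and 1.20 FPKM in control and 0.23, 1.13 and 0.16 at VILI 0 hours. At VILI 6 hours it was at 0.56, 2.15 and 59.3, with the largest SD of any member on the log2 scale (3.35, larger than in 99.9% of genes tested). The log2 fold change from VILI 0 hours to VILI 6 hours was 3.23 (SE 1.35, unadjusted P = 0.0396, adjusted p = 0.474 by limma), although the groups overlapped, and it was 1.36 without VILI 6 hours replicate 3, 2.96 without VILI 0 hours replicate 1 and 2.81 without VILI 0 hours replicate 3. It missed the threshold in those fits and when any 1 control library was left out (3.23 in each). Cxcl9 was at 0.37, 0.59 and 0.17 FPKM in control, 0.26, 0.34 and 0.08 at VILI 0 hours, and 0.16, 0.15 and 3.82 at VILI 6 hours. Cxcl9 was thus below 1 FPKM in 8 libraries, and VILI 6 hours replicate 3 was the other.

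The spread between mice was set beside that of all genes. The median SD of log2(FPKM + 0.1) within a group was 0.14 over the 38 members in control, 0.24 at VILI 0 hours and 0.79 at VILI 6 hours. Over all genes tested the same medians were 0.13, 0.21 and 0.33, and over genes with a mean of at least 1 FPKM, where 37 of the 38 members fall, 0.10, 0.17 and 0.27. At VILI 6 hours the median was 1.06 over the interferon-γ targets and 0.61 over the type I targets. The wide spread at VILI 6 hours rested on replicate 3. Without that library, a choice made after seeing the data, the median was 0.31 over the members, 0.51 over the interferon-γ targets, 0.24 over the type I targets and 0.26 over all genes tested, or 0.22 over genes with a mean of at least 1 FPKM. With all 3 libraries, Rsad2 (1.57), Ifi44 (1.43) and Isg15 (1.38) had the largest SDs of the type I targets at VILI 6 hours, and Ddx58 (0.18), Ifi35 (0.18) and Eif2ak2 (0.07) the smallest.

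Of the other genes of the pathway, 54 were listed and 34 passed the filter on low values. The ligands were scarce. Ifnb1 was listed at 0 in all 9 libraries, and of the 21 interferon genes listed Ifng was the one that passed the filter. Ifng was at 0.19, 0.09 and 0.19 FPKM in control, 0.09, 0.15 and 0.25 at VILI 0 hours, and 0.10, 0.04 and 0.58 at VILI 6 hours. It too was highest in VILI 6 hours replicate 3, at a level below 1 FPKM for which no read count was used.

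The 3 kinases Jak1, Jak2 and Tyk2 did not pass the test in any comparison. Of 6 receptor genes, Ifngr1 rose and Ifnar1 fell at VILI 0 hours, by 0.56 and -0.31 on the log2 scale, and Ifnlr1 rose by 0.34 at VILI 6 hours. The rise of Ifngr1 missed the threshold without VILI 0 hours replicate 1 (0.45). The fall of Ifnar1 missed it without control replicate 1 or 2 or VILI 0 hours replicate 1 or 3, and the rise of Ifnlr1 without any 1 control library, VILI 0 hours replicate 2 or VILI 6 hours replicate 2 or 3 (0.34 without replicate 3).

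The inhibitors of the pathway went in different directions. Socs1, which blocks JAK kinases downstream of both receptors, was at 3.56, 3.22 and 3.07 FPKM in control, 2.0, 1.97 and 1.6 at VILI 0 hours, and 3.85, 3.18 and 6.15 at VILI 6 hours. It fell by 0.79 on the log2 scale at VILI 0 hours (SE 0.23, unadjusted P = 0.0075, adjusted p = 0.151 by limma) and rose by 1.15 from VILI 0 hours to VILI 6 hours (SE 0.23, unadjusted P = 0.00072, adjusted p = 0.180), and by 0.89 without VILI 6 hours replicate 3. Socs3, which mainly blocks signalling of interleukin-6, was at 9.82 to 12.2 FPKM in control, 22.7 to 44.7 at VILI 0 hours and 25.5, 101 and 159 at VILI 6 hours, and rose in both comparisons against control, by 1.5 and 2.74, the second being 2.19 without VILI 6 hours replicate 3. Ptpn11, a phosphatase that acts on STAT proteins, rose in both, by 0.26 and 0.34 (0.30 without VILI 6 hours replicate 3). At VILI 0 hours Socs3 missed the threshold without control replicate 2 (1.42) or VILI 0 hours replicate 2 (1.25), and Ptpn11 without any 1 control library or VILI 0 hours replicate 1 or 3.

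Among 16 genes of sensing and induction, Myd88, the adaptor of most Toll-like receptors, was at 14.3 to 14.7 FPKM in control, 19.2, 24.3 and 18.1 at VILI 0 hours, and 22.9, 29.0 and 42.2 at VILI 6 hours. It rose by 0.49 on the log2 scale at VILI 0 hours and by 1.06 at VILI 6 hours (SE 0.20, unadjusted P = 0.00046, adjusted p = 0.056 by limma), the second being 0.83 without VILI 6 hours replicate 3. Tlr7, Tmem173 (STING) and Ifi204 rose at VILI 6 hours by 1.47 (1.17 without replicate 3), 0.68 and 1.31, and Tlr9 fell by 0.68 at VILI 0 hours. Myd88 and Tmem173 also rose from VILI 0 hours to VILI 6 hours, by 0.57 and 0.64, and both missed the threshold there without VILI 0 hours replicate 1 or 3 or VILI 6 hours replicate 3 (0.34 and 0.49). Tmem173 and Ifi204 at VILI 6 hours missed it without replicate 3 (0.54 and 0.82), and without control replicate 3 (0.62) or control replicate 2 (1.16) respectively. At VILI 0 hours Tlr9 missed it without any 1 control library or VILI 0 hours replicate 1 or 3 (-0.39), and Myd88 without any 1 control library, VILI 0 hours replicate 1 or 2 (0.36) or VILI 6 hours replicate 2. Over the 34 genes tested, 4 were higher and 3 lower at VILI 0 hours, against 6.81% and 9.35% of all genes. At VILI 6 hours 7 were higher and 0 lower, against 8.17% and 12.2%, and between the times 3 were higher and 0 lower, against 5.06% and 4.94%, with 0 past the adjustment in each comparison. Without VILI 6 hours replicate 3, 4 were higher and 1 lower at VILI 6 hours, against 6.63% and 7.48%. Without replicate 1, 11 were higher and 2 lower, against 12.8% and 26%, and 10 passed the adjustment, against 23.3%.

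Markers of other cells differed between the libraries, and only some lists were highest in VILI 6 hours replicate 3 among the libraries of that time. The summed level of 10 neutrophil markers was 50.1 to 57.6 FPKM in control, 575 to 1048 at VILI 0 hours, and 471, 1062 and 2151 at VILI 6 hours, with 9 of the 10 higher at an unadjusted P under 0.05 at VILI 0 hours and all 10 at VILI 6 hours, against 6.81% and 8.17% of all genes. Ly6g, a defining marker, was at 0 in 2 control libraries and highest, at 4.61 FPKM, in VILI 6 hours replicate 3. Of 12 T and NK cell markers 11 were measured, with sums of 43.9 to 53.5 FPKM in control, 35.7 to 55.4 at VILI 0 hours, and 20.2, 32.7 and 94.6 at VILI 6 hours, and 1 of the 11 (Ncr1) was lower at both times, against 9.35% and 12.2% of all genes. At VILI 6 hours all 11 had a log2 fold change below 0 (median -0.26). Without VILI 6 hours replicate 3, 6 of them were lower there, against 7.48% of all genes. Without replicate 1 this count was 0, against 26%. Gzma made up 45.0 of the 94.6 FPKM in replicate 3. The summed level of the interferon-γ targets was 161 to 178 FPKM in control, 102 to 156 at VILI 0 hours, and 116, 164 and 430 at VILI 6 hours. The sums of neutrophil and of T and NK cell markers were also lowest in replicate 1 and highest in replicate 3 there. S100a8 and S100a9 made up 545 and 1100 of the 2151 FPKM of neutrophil markers in replicate 3. Csf3r (36.8, 24.7 and 27.9 FPKM at VILI 6 hours) and Cd3d (1.06, 2.85 and 2.56) were not highest in replicate 3. The sums of 6 B cell markers were 45.6 to 62.1 FPKM in control, 19.6 to 61.3 at VILI 0 hours and 13.4, 38.1 and 19.8 at VILI 6 hours, with 1 of the 6 lower at VILI 0 hours and 4 at VILI 6 hours, against the same 9.35% and 12.2%. Those of 6 markers of plasmacytoid dendritic cells, which secrete type I interferon, were 51.6 to 63.0, 53.2 to 75.9 and, at VILI 6 hours, 54.6, 64.5 and 49.2, most of it from Tcf4 (35.8 to 54.4 FPKM), which other cells also express. Of these 6 markers 5 had a log2 fold change below 0 at VILI 6 hours (median -0.88), and 2 (Klk1 and Siglech) were lower at an unadjusted P under 0.05, against 12.2% of all genes. The number lower was 0 without VILI 6 hours replicate 1, against 26% of all genes, and 3 without replicate 3, against 7.48%. For 8 monocyte markers the sums were 332 to 345 FPKM in control, 376, 554 and 441 at VILI 0 hours, and 347, 510 and 566 at VILI 6 hours. Ace, which endothelium also expresses, made up most of these sums (205 to 399 FPKM). Without it, a choice made after seeing the data, the VILI 6 hours sums were 143, 111 and 200.02. Ccr2 and F13a1 were highest in replicate 1, and Ly6c2, Plac8, Cx3cr1, Nr4a1 and Treml4 in replicate 3. For 8 alveolar macrophage markers the sums were 290 to 361 FPKM in control, 418, 488 and 487 at VILI 0 hours, and 693, 292 and 425 at VILI 6 hours, with 3 of the 8 higher at VILI 0 hours, against 6.81% of all genes, and 1 higher and 2 lower at VILI 6 hours, against 8.17% and 12.2%. Chil3 made up 528 of the 693 FPKM in VILI 6 hours replicate 1, while Plet1 was highest in replicate 3, at 85.0. Of the 8 monocyte markers 0 were higher at VILI 0 hours and 2 at VILI 6 hours, against 6.81% and 8.17%. The part of these cells in the levels of the interferon-stimulated genes was not tested.

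Promoter motifs were set beside the levels as a description. Of the 20 members with an ISRE core in the promoter window, 12 were lower in all 3 VILI 0 hours libraries than in every control library, against 21.6% of all genes, and 16 were above all controls in VILI 6 hours replicate 3, against 28.2%. Of the 10 members whose window held no ISRE core, some of which held the GAS motif, these counts were 1 and 9, beside the same shares of all genes. Isg15, Ifit3 and Gbp2, whose promoters are printed above, were among the 12, and Oas3, with an ISRE core like theirs, was above control in every ventilated library.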

How the data were processed

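Lung RNA of 9 mice was measured, 3 per group as the sample records assign them. The authors aligned reads with TopHat2 2.0.9 and Bowtie2 2.0.6 to GRCm38, assembled transcripts with Scripture and Cufflinks, and deposited FPKM per transcript from Cuffdiff 2.1.1 (60108 transcripts). The records name a TruSeq kit and the paper a directional NEBNext kit with rRNA-depleted RNA, so whether strand was used is not settled, and reads of overlapping antisense genes may count for Cxcl10, Dhx58, Eif2ak2, Gbp2, Ifi35, Irf1, Irf7, Oasl1 and Usp18. Ifi47, Igtp, Irf9, Parp14 and Rtp4 overlap a gene on the same strand. Read counts were not used here, so precision rests on the spread of 3 mice.

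FPKM were summed per gene, and 23580 of 23713 Ensembl IDs were named by GENCODE M21. Of the members, 16 had 1 transcript row and 22 had more. On log2(FPKM + 0.1), genes with a mean of at least 0.1 FPKM (19378) were tested with limma 3.58.1 in R 4.3.3 (eBayes with a trend), in 1 fit of the 9 libraries with group as the factor, and P values were adjusted by Benjamini-Hochberg over all genes tested. The study's threshold of an unadjusted P under 0.05 was kept for counts. With 3 libraries per group, the smallest two-sided p of an exact permutation is 0.1. Fold changes of genes near 0.1 FPKM are understated. The procedure was tested on simulated data.

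Fold changes were given for members and pathway genes with an unadjusted P under 0.05, and values in every library for the 12 members with the lowest P and for Cxcl9, Cxcl10, Irf1, Irf7, Isg15 and Ifit1. Others were named after their values were seen, and 1 pathway gene is not reported here. The members and lists were chosen with earlier results of these data known. Alternatives were other pseudocounts and filters, centring of each library on its median, fits on the 6 libraries of a comparison, a replicate block, no trend in eBayes, the transcript row with the highest mean, and each library left out. Python 3.11.15, numpy 2.4.6, pandas 2.3.3 and matplotlib 3.10.9 were used.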

Additional observations from a re-analysis of the deposited data

Results flagged for a closer look

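Cxcl10 differed between the times. Its fold change from VILI 0 hours to VILI 6 hours was 3.23 on the log2 scale at an unadjusted P of 0.0396, and 0.474 after Benjamini-Hochberg adjustment by limma, which amounts to a test of the difference between its changes from the same control libraries at each time. The value rests on VILI 6 hours replicate 3 (59.3 FPKM, where the other two were at 0.56 and 2.15), and without that library it was 1.36 and missed the threshold. With 3 libraries per group, single libraries far from their group were not tested as such.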

How the results depend on the processing

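The 29 fold changes of members and pathway genes past the threshold were each recomputed under 18 alternatives. Of the 522 values, 413 kept direction and threshold, 109 kept direction and missed the threshold, and 0 reversed. The number of members with an unadjusted P under 0.05 was 5 at VILI 0 hours vs control, and 1 with median-centred libraries, 18 with only the 6 libraries compared, and 1 to 11 with each library left out, of which 2 without control replicate 1 or 3, 1 without VILI 0 hours replicate 3 and 11 without VILI 6 hours replicate 3. Of all genes, 16.2% were called in the fit reported, 16.4% with centring, 26.3% with 6 libraries and, in the order of the libraries just named, 10.8%, 12.1%, 11.2% and 20.1%. At VILI 6 hours vs control it was 6, and 2 with centring, 3 with 6 libraries, and 1 to 16 with each left out, of which 2 without control replicate 1 or 2 or VILI 6 hours replicate 2, 1 without control replicate 3, 12 without VILI 6 hours replicate 1 and 16 without replicate 3. Of all genes, 20.4% were called, 20.2% with centring, 17.4% with 6 libraries and, in the same order, 14.4%, 13.1%, 14.5%, 13.3%, 38.8% and 14.1%. Between the times it was 1, and 0 with a pseudocount of 1, with 6 libraries or without a trend, 2 with the highest transcript row, and 0 to 10 with each left out: 0 without any control library or VILI 0 hours replicate 1 or 3, 4 without VILI 0 hours replicate 2, and 10, 3 and 7 without VILI 6 hours replicates 1, 2 and 3. Of all genes, 10% were called, 9.99% with a pseudocount of 1, 6.24% with 6 libraries, 9.55% without a trend and 9.17% with the highest row, 7.26% to 9.82% in the 5 leave-outs with 0 members, 7.38% without VILI 0 hours replicate 2, and 22.4%, 9.84% and 9.68% without VILI 6 hours replicates 1, 2 and 3. After adjustment 1 member (0 in the fit reported) passed at VILI 0 hours with 6 libraries and 0 to 1 with each library left out (1 without VILI 6 hours replicate 1), against 8.24% and 6.93% of all genes, and at VILI 6 hours 0 to 3 (3 without VILI 6 hours replicate 1, against 23.3%). The causes were not tested. The median of the type I targets at VILI 0 hours was -0.22, and -0.10 with centring and -0.22 to -0.051 with each library left out (-0.051 without VILI 0 hours replicate 3). That of the interferon-γ targets ran from -0.82 to -0.34 with each left out. At VILI 6 hours the median of the interferon-γ targets ran from -0.41 to 0.70 with each left out. Centring turned the sign of Irf9 and Rtp4 at VILI 0 hours, of Irf9, Ifih1, Oasl2 and Ifit2 at VILI 6 hours and of Trim30a between the times, none of which was called.

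Same-numbered libraries did not deviate together (Pearson r of -0.22 to 0.02 over genes, 9 pairs), so the samples share only a number. With a replicate block the counts were 4, 6 and 2 (0 after adjustment in each comparison), against 14.5%, 18% and 8.74% of all genes.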
